A study of Mus musculus with 9 samples.

Results

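The 40 genes described here carry out or switch on DNA replication, the copying of the genome in the S phase of the cell cycle. They were taken by symbol from a list of the origin-licensing factors, the MCM helicase and its activators, the replicative polymerases, the clamp and its loaders, the enzymes of DNA precursor supply, the histone chaperones of the fork and the regulators of entry into S phase. All 40 were among the 15149 genes measured and among the 14426 that passed the filter on low counts. No measured value was used to choose them by that rule, but earlier results of the same hearts were known when the list was drawn up.

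Whole-ventricle RNA was sequenced from 9 wild-type C57Bl6N mice, 3 per group, whose age the labels give as 2 to 3 months in one field and 3 months in the sample titles, while the study's methods state an older range. Ctr hearts (2 females, 1 male) were taken at 0 d. ISO hearts (1 female, 2 males) came from mice given the beta-adrenoceptor agonist isoprenaline by osmotic minipump for 96 h, at a daily dose of 30 mg/kg. ISO/PE hearts (1 female, 2 males) came from mice given the same isoprenaline dose together with the alpha1-adrenoceptor agonist phenylephrine, also 30 mg/kg daily, over the same 96 h. Implantation of a pump and the 96 h that followed therefore separate both treated groups from Ctr, and cannot be told apart from the drugs in a comparison with Ctr. Total counts per heart were 10172248 to 14477054. Levels are given as CPM, counts per 1000000 counts of the normalized library size, and values of single hearts are given in the order female1, female2, male1 for Ctr and female2, male1, male2 for ISO and for ISO/PE.

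Replication starts from origins that are licensed in G1, when the origin recognition complex, CDC6 and CDT1 load the MCM ring onto DNA. In S phase the ring is turned into an active helicase by CDC45 and the GINS complex, primase and the polymerases copy both strands around the PCNA clamp, and the E2F transcription factors drive many of the genes concerned. Adult cardiomyocytes rarely divide, and most cells that enter S phase in a stressed adult heart are non-myocytes such as fibroblasts, macrophages and endothelial cells.

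In ISO hearts 27 of the 40 genes rose against Ctr and none fell, and in ISO/PE hearts 30 rose and 1, Dut, fell. Over all genes tested, 10.4% were called higher in ISO and 16% in ISO/PE, and 2.99% and 10.1% were called lower. Calls required a Benjamini-Hochberg adjusted p below 0.05 in edgeR's quasi-likelihood test and an absolute log2 fold change above 0.6. With the adjusted p alone, 28 genes were higher in ISO and 31 in ISO/PE, beside 15.2% and 24.4% of all genes. The median log2 fold change of the 40 genes was 1.05 for ISO and 1.23 for ISO/PE, beside -0.01 in both comparisons for all genes tested. In bulk tissue a change in the number of cycling cells and a change in RNA per cell cannot be told apart. All 27 genes called in ISO were among the 30 called in ISO/PE, and the other 3 were Cdc45, Pcna and Rfc3, but both comparisons use the same Ctr hearts. At an unadjusted p under 0.05, Pola2 and Dut were lower in ISO than Ctr, and DESeq2 called 0 of the 40 lower there. All treated hearts lay above all Ctr hearts for 32 of the 40 genes in each comparison, beside 23.1% of all genes for ISO and 28.6% for ISO/PE. They lay below all Ctr hearts for Pola2 and Dut in ISO (20.4% of all genes) and for Dut in ISO/PE (27.8%). By role, the median log2 fold change in ISO was highest for the chromatin genes (2.48), the regulators of S-phase entry (2.01) and the enzymes of nucleotide supply (1.78), and lowest for the clamp, its loaders and single-strand binding (0.36). The p-values set each group difference against the spread between these hearts, which was estimated with information shared across genes.

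**Figure D1:**
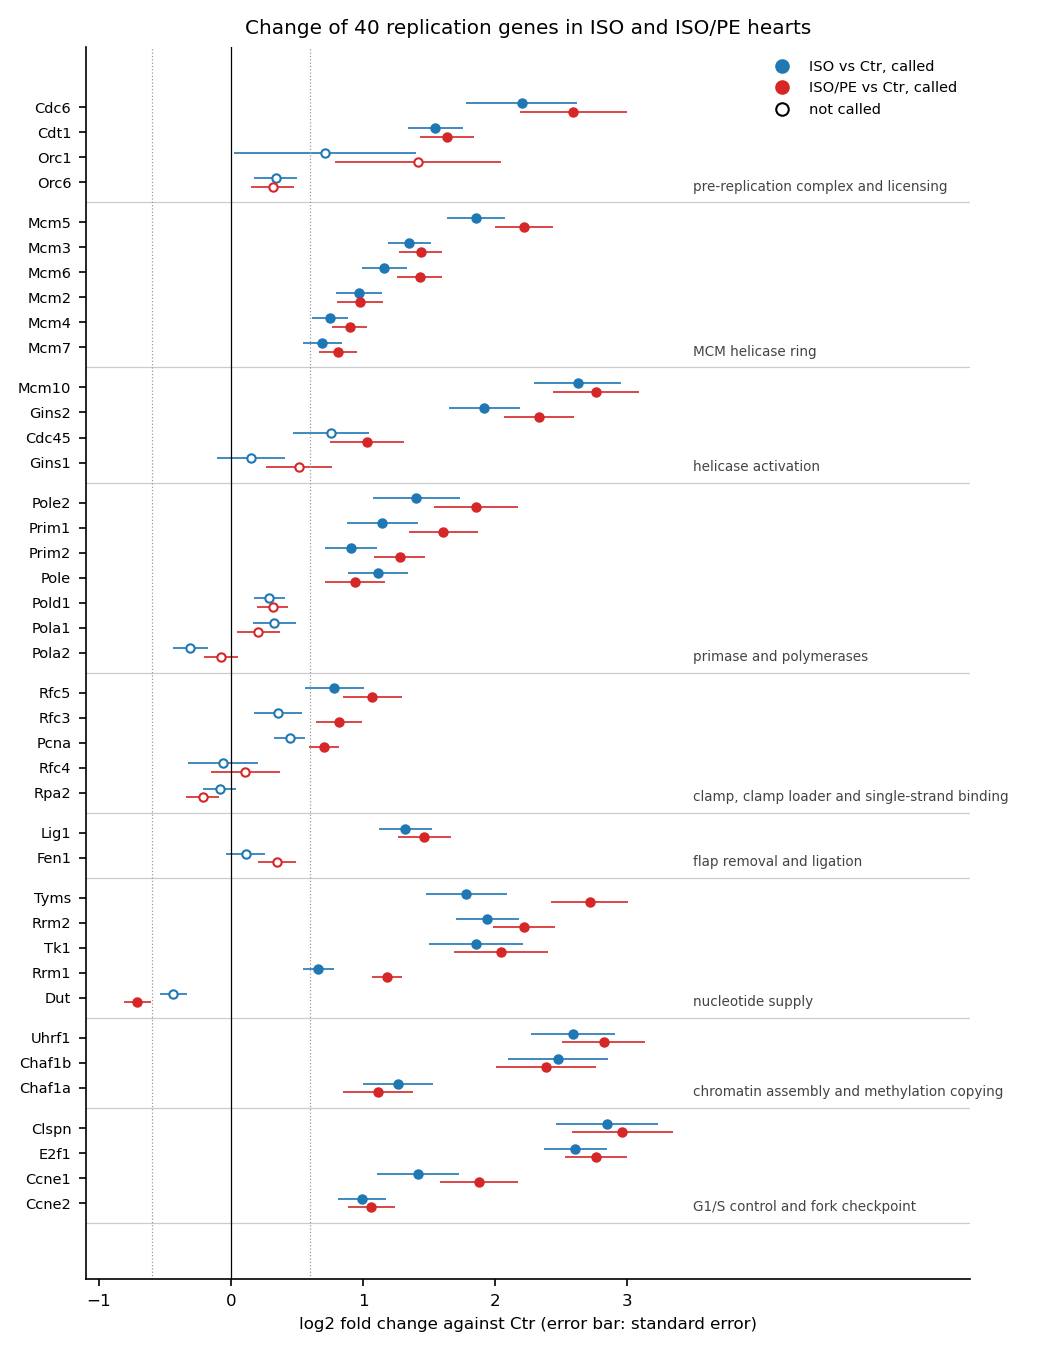
Log2 fold change of each of the 40 genes in ISO (blue) and ISO/PE (red) against Ctr, grouped by role, with standard errors (SE); filled points were called and open points were not, and dotted lines mark 0.6 in either direction. Clspn, E2f1, Uhrf1 and Mcm10 lie above 2.5 under both treatments, and Dut is the one filled point left of 0.

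The promoters of the genes were read for letters that E2F factors are known to bind. Of the 40 genes, 34 matched the RefSeq promoter table (build GRCm38.p6), with 39 windows of 250 bases before to 50 after a start. The strings searched were TTTCGCGC, TTTGGCGC, TTTCCCGC and TTTGGCGG on both strands, where matches may overlap each other. At least 1 of them was present in 16 of the 39 windows (41.0%), beside 2.37% of all 32851 windows in the table. The genes were listed for their function in replication, so this share describes the list and not its change under treatment. The 16 windows belong to 16 genes. Of these, 12 were among the 25 matched genes called higher in ISO/PE (48.0%) and 4 (Orc1, Pola1, Pola2 and Pold1) among the 9 others (44.4%). Matches were thus about as frequent in genes that rose as in the others. CCAAT, on either strand, was in 21 of the 39 windows (53.8%) and in 37.4% of all windows. A match is a description of the letters and not a binding site.

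Stretches with matches are shown for some of the genes that rose and, for contrast, for Pola1, which was not called against Ctr, each 5′ to 3′ on the strand of the gene with the matched letters in capitals. In the order shown they lie upstream of the start at chr8:75109329-75109428 (plus strand), chr1:128359736-128359835 (minus), chr4:126556810-126556909 (plus), chr11:98907963-98908062 (plus), chr17:56040322-56040415 (plus) and chrX:93632244-93632343 (minus). The start meant is that of the promoter window. For Cdc6 and Pola1 it lies inside the annotated gene (chr11:98907709-98923942 and chrX:93304766-93632387), and so do their stretches. In Mcm5 and at the first site of Mcm6 a forward and a reverse match share letters.
Mcm5: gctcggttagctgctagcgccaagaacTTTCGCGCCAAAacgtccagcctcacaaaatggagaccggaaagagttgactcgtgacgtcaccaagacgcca
Mcm6: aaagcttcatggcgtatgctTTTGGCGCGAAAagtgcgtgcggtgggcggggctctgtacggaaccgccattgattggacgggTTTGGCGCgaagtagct
Clspn: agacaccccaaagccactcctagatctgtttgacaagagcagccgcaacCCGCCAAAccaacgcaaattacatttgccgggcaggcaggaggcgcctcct
Cdc6: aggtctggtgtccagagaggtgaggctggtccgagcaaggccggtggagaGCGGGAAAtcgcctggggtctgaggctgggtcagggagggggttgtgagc
Chaf1a: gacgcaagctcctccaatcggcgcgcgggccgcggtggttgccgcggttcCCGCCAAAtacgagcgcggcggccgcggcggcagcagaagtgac
Pola1: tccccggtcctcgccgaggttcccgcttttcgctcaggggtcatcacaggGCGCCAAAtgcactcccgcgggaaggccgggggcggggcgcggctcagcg

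In Mcm3, Rfc3 and Cdt1 the matches lie around or just after the start, and in Rfc3 one lies on either side of it. The short stretches shown are at chr1:20820265-20820294 (minus strand), chr5:151651194-151651223 (minus) and chr8:122568035-122568064 (plus).
Mcm3: gGCGGGAAAacttgggaagtTTTGGCGCca
Rfc3: cacgcTTTCGCGCtcGCGGGAAAactctac
Cdt1: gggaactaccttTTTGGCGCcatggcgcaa

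Of the 4 licensing factors, Cdc6 and Cdt1 rose under both treatments and the 2 subunits of the origin recognition complex were not called. Cdc6, which helps load the MCM ring, was at 0.468, 0.375 and 1.22 CPM in Ctr, 3.49, 2.45 and 3.49 CPM in ISO and 4.26, 5.37 and 2.79 CPM in ISO/PE hearts. Every treated heart lay above every Ctr heart, and the log2 fold change was 2.20 (SE 0.42, adjusted p = 0.00302) for ISO and 2.59 (SE 0.40, adjusted p = 3.37e-04) for ISO/PE. Cdt1, its partner in loading, was at 3.46, 3.57 and 4.08 CPM in Ctr, 10.1, 9.72 and 12.7 CPM in ISO and 10.7, 14.6 and 9.26 CPM in ISO/PE hearts. The Ctr hearts lay within a narrow range far below all treated hearts, and Cdt1 rose by 1.55 (SE 0.21, adjusted p = 3.85e-04) and 1.64 (SE 0.20, adjusted p = 7.41e-05) on the log2 scale. Orc1, the ATPase subunit of the origin complex, was at 0, 0.845 and 0.816 CPM in Ctr, 0.682, 0.845 and 1.19 CPM in ISO and 1.03, 2.34 and 1.10 CPM in ISO/PE hearts. It had 0 to 9 counts in the Ctr hearts, the single 0 allows up to 0.281 CPM (3 counts, counting error only), and Ctr and ISO hearts overlapped. Its log2 fold changes of 0.71 (SE 0.69, adjusted p = 0.486) and 1.42 (SE 0.63, adjusted p = 0.0864) did not pass the test at this depth. Orc6 was at 9.26, 6.57 and 8.06 CPM in Ctr, 9.93, 9.55 and 10.7 CPM in ISO and 10.7, 10.7 and 8.31 CPM in ISO/PE hearts, with log2 fold changes of 0.34 (SE 0.16, adjusted p = 0.158) and 0.32 (SE 0.16, adjusted p = 0.130). The ISO hearts lay above the Ctr hearts, whereas ISO/PE male2 lay inside the Ctr range. The counted transcripts of Cdc6 and Tyms are non-coding RefSeq records of these genes, and with all transcripts of each gene summed 27 of the 40 genes were called higher in ISO and 30 in ISO/PE.

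All 6 subunits of the MCM ring rose under both treatments, by 0.69 to 1.85 on the log2 scale in ISO and by 0.81 to 2.22 in ISO/PE. Mcm5 was the lowest of them in Ctr and changed most, at 5.61, 4.60 and 8.67 CPM in Ctr, 22.7, 19.6 and 25.6 CPM in ISO and 27.6, 35.8 and 24.3 CPM in ISO/PE hearts. Its log2 fold change was 1.85 (SE 0.22, adjusted p = 2.04e-04) for ISO and 2.22 (SE 0.22, adjusted p = 1.59e-05) for ISO/PE, with no overlap between treated and Ctr hearts. Mcm2 was at 13.9, 13.7 and 14.9 CPM in Ctr, 30.9, 23.1 and 29.4 CPM in ISO and 27.5, 35.1 and 21.3 CPM in ISO/PE hearts, with 0.97 (SE 0.17, adjusted p = 0.00219) and 0.98 (SE 0.17, adjusted p = 8.08e-04). The treated hearts were all above Ctr, while ISO and ISO/PE hearts overlapped. Mcm7, whose intron hosts a microRNA cluster, was at 9.73, 9.01 and 11.9 CPM in Ctr, 17.3, 15.5 and 16.7 CPM in ISO and 19.9, 18.8 and 15.1 CPM in ISO/PE hearts. It had the smallest log2 fold changes of the ring, 0.69 (SE 0.15, adjusted p = 0.00517) and 0.81 (SE 0.14, adjusted p = 7.98e-04), and 13.0% of its counted transcript lies in exons of other genes. Without Ctr female2 its ISO value was 0.59, under the fold threshold. Mcm3, Mcm4 and Mcm6 rose by 1.35, 0.75 and 1.16 in ISO and by 1.44, 0.90 and 1.43 in ISO/PE (adjusted p at most 0.00212).

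Per kilobase of transcript, the 6 ring subunits, which assemble in equal numbers, stood closer together in treated than in Ctr hearts. In Ctr the group means ran from 1.84 RPKM (Mcm5) to 4.25 RPKM (Mcm7), a ratio of 2.31. In ISO they ran from 6.61 RPKM (Mcm5) to 9.01 RPKM (Mcm3), a ratio of 1.36, and in ISO/PE from 7.36 RPKM (Mcm4) to 9.67 RPKM (Mcm6), a ratio of 1.31. Heart by heart the ratio of highest to lowest subunit was 1.96 to 3.05 in Ctr, 1.37 to 1.43 in ISO and 1.26 to 1.45 in ISO/PE, so that the Ctr hearts and the treated hearts did not overlap. No test was made of this ratio, which was looked at after the values of its genes were known.

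**Figure D2:**
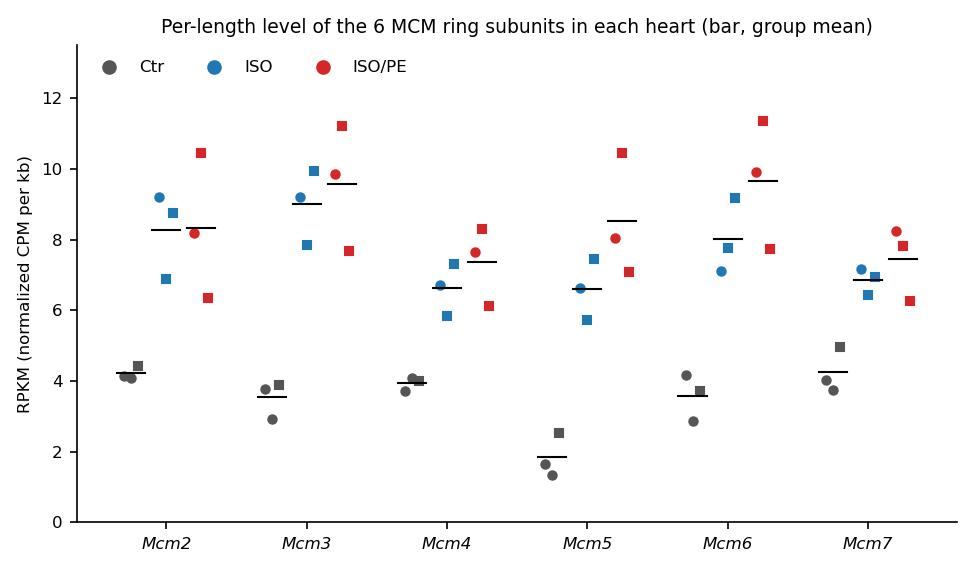
CPM per kilobase of transcript (RPKM) for the 6 MCM ring subunits in each heart, with circles for females, squares for males and a bar at each group mean. Mcm5 is the lowest subunit in all 3 Ctr hearts, and in the treated hearts the subunits lie within a ratio of 1.26 to 1.45 of each other.

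Among the genes that switch the ring on, Mcm10 and Gins2 rose strongly under both treatments, Cdc45 was called in ISO/PE and Gins1 in neither. Mcm10, an activator of the loaded helicase, was at 0.561, 0.938 and 0.408 CPM in Ctr, 4.25, 4.14 and 3.65 CPM in ISO and 5.10, 5.06 and 3.09 CPM in ISO/PE hearts. It rose by 2.63 (SE 0.33, adjusted p = 2.93e-04) in ISO and by 2.77 (SE 0.33, adjusted p = 4.99e-05) in ISO/PE, from 4 to 10 counts per Ctr heart to 42 to 79 counts per treated heart. Cdc45, the helicase cofactor, had log2 fold changes of 0.76 (SE 0.29, adjusted p = 0.0754) and 1.03 (SE 0.28, adjusted p = 0.0108). ISO female2, at 4.70 CPM, was close to the highest Ctr heart at 4.60 CPM, and the ISO difference was 0.98 (adjusted p = 0.0210) without this heart and 0.76 (adjusted p = 0.0466) without ISO/PE male2. Gins1 was at 2.81, 2.53 and 2.04 CPM in Ctr, 2.27, 2.62 and 3.33 CPM in ISO and 2.65, 4.08 and 3.90 CPM in ISO/PE hearts. Treated and Ctr hearts overlapped, and its log2 fold changes were 0.15 (SE 0.26, adjusted p = 0.706) and 0.51 (SE 0.25, adjusted p = 0.111). Gins2, another GINS subunit, rose by 1.92 (SE 0.27, adjusted p = 5.27e-04) and 2.33 (SE 0.26, adjusted p = 3.74e-05). Of the counted Gins2 transcript 70.7% lies in exons of Gse1, where the Gins2 values may hold reads of Gse1, since the study's methods describe counting without strand. Gse1 itself had log2 fold changes of -0.07 and -0.32.

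In the primase and polymerase group the primase subunits and the epsilon polymerase rose, and the alpha and delta subunits were not called. Pole2, an accessory subunit of the leading-strand polymerase, was at 1.22, 0.938 and 2.14 CPM in Ctr, 3.03, 3.13 and 5.16 CPM in ISO and 4.84, 6.05 and 4.63 CPM in ISO/PE hearts. All treated hearts were above Ctr, with 1.41 (SE 0.33, adjusted p = 0.00930) and 1.86 (SE 0.32, adjusted p = 6.24e-04). Exons of Gm49384 hold 14.4% of the counted Pole2 transcript. Prim1 and Prim2, the catalytic and the large primase subunit, rose by 1.15 and 0.91 in ISO and by 1.61 and 1.28 in ISO/PE (adjusted p at most 0.00948). Pole, the catalytic epsilon subunit, rose by 1.11 (SE 0.23, adjusted p = 0.00474) and 0.94 (SE 0.23, adjusted p = 0.00596). Pola1, the catalytic subunit of the polymerase that extends primers, was at 7.86, 7.70 and 9.18 CPM in Ctr, 8.19, 12.2 and 10.7 CPM in ISO and 8.84, 9.75 and 9.93 CPM in ISO/PE hearts. Its groups overlapped, and the log2 fold changes of 0.33 (SE 0.16, adjusted p = 0.171) and 0.21 (SE 0.16, adjusted p = 0.326) did not pass. Pola2, its regulatory subunit, was at 20.2, 20.7 and 21.8 CPM in Ctr, 15.5, 15.6 and 19.6 CPM in ISO and 19.4, 23.0 and 17.2 CPM in ISO/PE hearts. In ISO all 3 hearts lay below the lowest Ctr heart, at a log2 fold change of -0.31 (SE 0.13, adjusted p = 0.116), and in ISO/PE the hearts lay on both sides of the Ctr range, at -0.08 (SE 0.13, adjusted p = 0.658). Scaling to cardiomyocyte markers instead of all genes moved the median log2 fold change of all genes for ISO/PE vs. Ctr from -0.01 to 0.79. Pola2 was at 0.71 (adjusted p = 0.00323) on that scale, which shifts all genes of a comparison by about the same amount. Pold1, the catalytic subunit of the lagging-strand polymerase, was at 20.1, 19.0 and 19.8 CPM in Ctr, 22.7, 22.7 and 26.7 CPM in ISO and 25.8, 26.8 and 20.7 CPM in ISO/PE hearts. Treated hearts were all above Ctr hearts, yet the log2 fold changes of 0.29 (SE 0.12, adjusted p = 0.0963) and 0.32 (SE 0.12, adjusted p = 0.0456) stayed under the fold threshold.

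Of the clamp, its loaders and the single-strand-binding protein, Rfc5 rose under both treatments, Pcna and Rfc3 were called in ISO/PE, and Rfc4 and Rpa2 in neither. Pcna, the sliding clamp, was at 18.1, 15.9 and 14.2 CPM in Ctr, 20.9, 21.2 and 23.4 CPM in ISO and 27.4, 27.5 and 23.6 CPM in ISO/PE hearts. The 3 groups followed each other without overlap, the ISO difference of 0.45 (SE 0.12, adjusted p = 0.0162) passed the adjusted p but not the fold threshold, and in ISO/PE Pcna rose by 0.71 (SE 0.11, adjusted p = 4.53e-04). Rfc5, a clamp-loader subunit, was at 2.34, 4.04 and 3.57 CPM in Ctr, 5.61, 5.16 and 6.35 CPM in ISO and 6.58, 8.39 and 5.96 CPM in ISO/PE hearts. The treated hearts were all higher, with log2 fold changes of 0.78 (SE 0.23, adjusted p = 0.0259) and 1.07 (SE 0.22, adjusted p = 0.00214). The call in ISO was lost when Ctr female1, Ctr male1 or ISO male2 was left out (adjusted p 0.0982, 0.0512 and 0.0894). Exons of Wsb2 hold 17.8% of the counted Rfc5 transcript. Rfc3, another loader subunit, had 0.36 (SE 0.18, adjusted p = 0.174) in ISO and rose by 0.82 (SE 0.18, adjusted p = 0.00270) in ISO/PE. Rfc4 was at 6.92, 5.16 and 7.34 CPM in Ctr, 4.93, 7.52 and 6.19 CPM in ISO and 4.58, 9.37 and 7.06 CPM in ISO/PE hearts. The hearts of all groups overlapped, with -0.06 (SE 0.26, adjusted p = 0.884) and 0.11 (SE 0.26, adjusted p = 0.755). Exons of Eif4a2 hold 13.4% of the counted Rfc4 transcript. Rpa2, a subunit of the protein that coats single strands, was at 16.7, 16.4 and 14.7 CPM in Ctr, 17.2, 13.8 and 14.0 CPM in ISO and 12.8, 14.7 and 13.7 CPM in ISO/PE hearts. Its log2 fold changes were -0.09 (SE 0.12, adjusted p = 0.652) and -0.22 (SE 0.12, adjusted p = 0.176), and the groups overlapped.

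Lig1, the ligase that joins Okazaki fragments, rose, and Fen1, the nuclease that trims their flaps, was not called. Lig1 was at 7.86, 5.54 and 7.24 CPM in Ctr, 14.8, 18.6 and 18.2 CPM in ISO and 18.7, 23.8 and 14.5 CPM in ISO/PE hearts. All 6 treated hearts exceeded all 3 Ctr hearts, and Lig1 rose by 1.32 (SE 0.20, adjusted p = 8.37e-04) and 1.46 (SE 0.20, adjusted p = 1.32e-04). Fen1 was at 18.3, 20.9 and 27.3 CPM in Ctr, 21.7, 22.6 and 27.5 CPM in ISO and 29.0, 29.3 and 26.3 CPM in ISO/PE hearts. Ctr male1 lay within the treated range, and the log2 fold changes were 0.11 (SE 0.15, adjusted p = 0.621) and 0.35 (SE 0.14, adjusted p = 0.0681). Of the counted Fen1 transcript, 88.7% lies in exons of Tmem258 or Gm10143, so that the Fen1 values may hold reads of those genes. Tmem258 had log2 fold changes of -0.36 and -0.13.

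In the supply of DNA precursors, both ribonucleotide reductase subunits and both enzymes of thymidylate supply rose, while Dut, the enzyme that removes dUTP, went the other way. Rrm2, the S-phase subunit of ribonucleotide reductase, was at 2.81, 2.72 and 2.75 CPM in Ctr, 10.8, 9.89 and 11.3 CPM in ISO and 13.9, 16.2 and 8.53 CPM in ISO/PE hearts. The 3 Ctr hearts were nearly equal and every treated heart was several times higher, with log2 fold changes of 1.94 (SE 0.24, adjusted p = 2.43e-04) and 2.22 (SE 0.23, adjusted p = 2.42e-05). Rrm1, the large subunit, rose by 0.66 (SE 0.12, adjusted p = 0.00214) and 1.18 (SE 0.12, adjusted p = 1.68e-05), and its ISO value was 0.59 without ISO male2. Tyms, thymidylate synthase, was at 1.96, 1.41 and 1.94 CPM in Ctr, 3.79, 6.17 and 8.41 CPM in ISO and 12.4, 12.8 and 9.78 CPM in ISO/PE hearts. The groups were ordered Ctr, ISO, ISO/PE without overlap, with log2 fold changes of 1.78 (SE 0.30, adjusted p = 0.00163) and 2.72 (SE 0.29, adjusted p = 2.64e-05). Tk1, the S-phase thymidine kinase, was at 3.09, 1.88 and 1.53 CPM in Ctr, 8.11, 6.93 and 8.65 CPM in ISO and 10.3, 12.1 and 4.71 CPM in ISO/PE hearts. ISO/PE male2 was the lowest treated heart but still above Ctr, and Tk1 rose by 1.86 (SE 0.36, adjusted p = 0.00337) and 2.05 (SE 0.35, adjusted p = 6.86e-04). Dut was at 34.8, 33.0 and 40.9 CPM in Ctr, 27.7, 24.9 and 27.8 CPM in ISO and 21.5, 23.4 and 21.5 CPM in ISO/PE hearts. All treated hearts were below all Ctr hearts and all ISO/PE hearts below all ISO hearts, the ISO difference of -0.44 (SE 0.10, adjusted p = 0.00912) was short of the fold threshold, and in ISO/PE Dut fell by 0.71 (SE 0.10, adjusted p = 1.93e-04). With libraries scaled to cardiomyocyte markers the Dut value for ISO/PE vs. Ctr was 0.08 (adjusted p = 0.717), where the median of all genes was 0.79. Such scaling shifts all genes of a comparison by about the same amount, so it cannot test where Dut lies against the median gene.

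**Figure D3:**
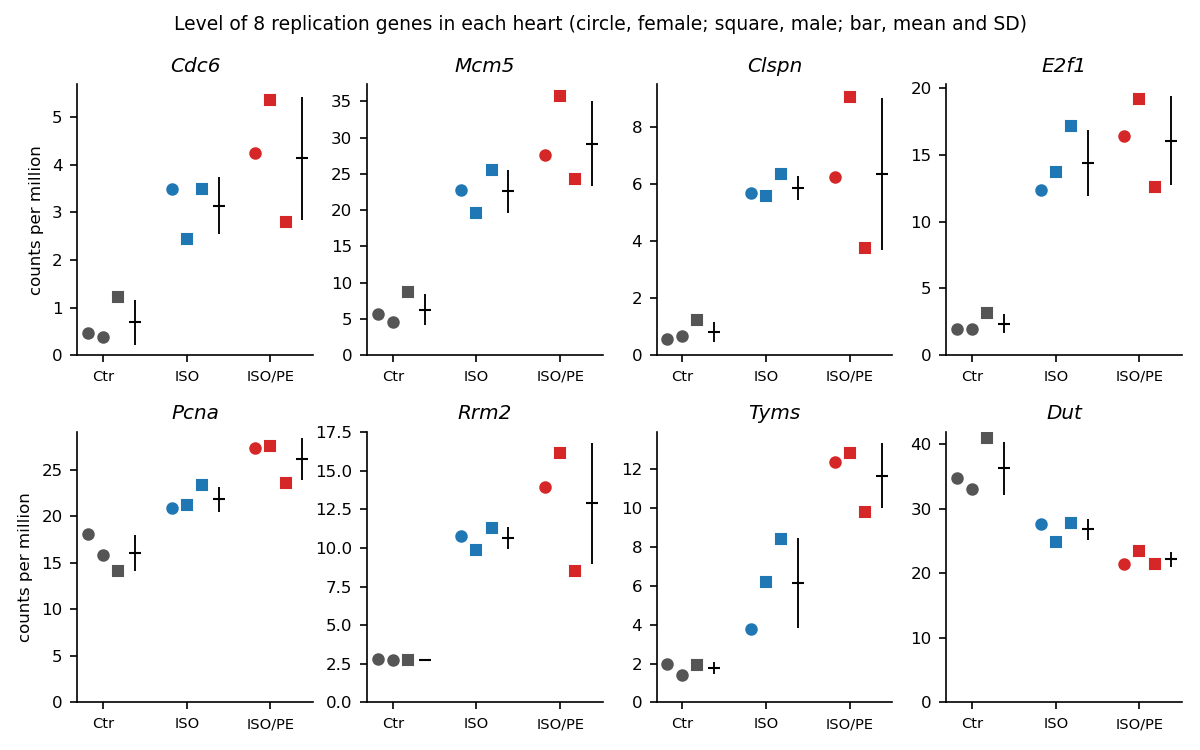
Levels in CPM of 8 of the genes in each heart (grey, Ctr; blue, ISO; red, ISO/PE; circles, females; squares, males), with the mean and SD of 3 hearts beside each group. Cdc6, Mcm5, Clspn, E2f1, Pcna, Rrm2 and Tyms lie higher in all treated than in all Ctr hearts, and Dut lies lower.

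The 3 genes that restore chromatin behind the fork rose under both treatments. Uhrf1, which brings the maintenance DNA methyltransferase to newly copied DNA, was at 1.12, 1.31 and 2.55 CPM in Ctr, 10.8, 7.86 and 11.1 CPM in ISO and 12.8, 14.2 and 8.01 CPM in ISO/PE hearts. Every treated heart exceeded the highest Ctr heart, and the log2 fold changes were 2.59 (SE 0.32, adjusted p = 2.52e-04) and 2.82 (SE 0.31, adjusted p = 3.48e-05). Chaf1b, a subunit of the histone chaperone CAF-1, rose by 2.48 (SE 0.38, adjusted p = 8.37e-04) and 2.39 (SE 0.38, adjusted p = 3.69e-04). Its partner Chaf1a was at 4.02, 3.94 and 5.91 CPM in Ctr, 10.4, 9.55 and 13.3 CPM in ISO and 11.2, 12.5 and 6.32 CPM in ISO/PE hearts. The highest Ctr heart (5.91 CPM) lay just under ISO/PE male2 (6.32 CPM), and Chaf1a rose by 1.27 (SE 0.27, adjusted p = 0.00535) and 1.11 (SE 0.27, adjusted p = 0.00524). Exons of Ubxn6 hold 48.6% of the counted Chaf1a transcript, and Ubxn6 had log2 fold changes of -0.21 and -0.36.

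All 4 regulators of S-phase entry and fork stability rose under both treatments. E2f1, a transcription factor of S-phase genes, was at 1.96, 1.97 and 3.16 CPM in Ctr, 12.4, 13.7 and 17.1 CPM in ISO and 16.4, 19.2 and 12.6 CPM in ISO/PE hearts. Treated hearts held several times the Ctr level in each case, with log2 fold changes of 2.61 (SE 0.24, adjusted p = 5.15e-05) and 2.77 (SE 0.24, adjusted p = 7.85e-06). Clspn, the adaptor that activates the checkpoint kinase at stalled forks, was at 0.561, 0.657 and 1.22 CPM in Ctr, 5.69, 5.58 and 6.35 CPM in ISO and 6.26, 9.07 and 3.75 CPM in ISO/PE hearts. It had the largest log2 fold changes of the 40 genes, 2.85 (SE 0.39, adjusted p = 4.22e-04) and 2.96 (SE 0.38, adjusted p = 8.93e-05), from 6 to 12 counts per Ctr heart. Ccne1, a cyclin that drives the G1/S transition, was at 0.842, 1.41 and 1.84 CPM in Ctr, 4.02, 2.96 and 3.89 CPM in ISO and 5.29, 6.05 and 3.68 CPM in ISO/PE hearts. No treated heart reached down to the Ctr range, and Ccne1 rose by 1.42 (SE 0.31, adjusted p = 0.00636) and 1.88 (SE 0.30, adjusted p = 3.74e-04). Ccne2, the other E-type cyclin, was at 4.40, 4.50 and 6.73 CPM in Ctr, 10.9, 10.6 and 9.52 CPM in ISO and 10.5, 12.2 and 9.93 CPM in ISO/PE hearts. It rose by 0.99 (SE 0.18, adjusted p = 0.00240) and 1.06 (SE 0.18, adjusted p = 5.78e-04), less than Ccne1 in both comparisons, although the difference between both cyclins was not tested. Exons of Ints8 hold 20.9% of the counted Ccne2 transcript, and Ints8 had log2 fold changes of -0.03 and 0.34.

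Whether phenylephrine added to the response was asked by comparing ISO/PE with ISO hearts directly. The median log2 fold change of the 40 genes was 0.21, with 33 of 40 above 0, beside a median near 0 for all genes tested, 49.2% of which were above 0. Of the 40 genes, 1 was called higher and 0 lower, beside 3.64% and 2.81% of all genes. The called gene was Tyms, with 11.7 ± 1.66 CPM under ISO/PE and 6.12 ± 2.31 CPM under ISO (SD, n = 3). By edgeR the log2 difference of Tyms was 0.93 (SE 0.24, adjusted p = 0.0269). With the adjusted p alone Tyms and Rrm1 were higher, beside 7.46% of all genes. The lowest ISO/PE heart (9.78 CPM) was above the highest ISO heart (8.41 CPM), but the call was lost without ISO female2, ISO male1, ISO/PE female2 or ISO/PE male1 (adjusted p 0.0679 to 0.0903). Over all alternatives tried the adjusted p of Tyms ranged from 0.00059 to 0.0903.

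Rrm1 differed by 0.52 (SE 0.11, adjusted p = 0.0135) between the treatments, under the fold threshold, at 34.3, 40.2 and 43.1 CPM in ISO and 60.9, 59.8 and 48.0 CPM in ISO/PE hearts. Pcna and Rfc3 had unadjusted p under 0.05, with log2 fold changes of 0.26 (SE 0.11, adjusted p = 0.137) and 0.46 (SE 0.17, adjusted p = 0.0873). Dut had a log2 fold change of -0.28 (SE 0.10, adjusted p = 0.0927) and an unadjusted p under 0.05, its ISO/PE hearts lay below all ISO hearts as for 16.3% of all genes, and DESeq2 called 0 of the 40 lower. Gins2, Pcna, Rfc3, Rrm1 and Tyms were the 5 genes whose ISO/PE hearts all lay above all ISO hearts, a share of 12.5% beside 17.1% of all genes tested. Between the treatments Mcm2 differed by 0.01 (SE 0.16, adjusted p = 0.980) and Clspn by 0.11 (SE 0.28, adjusted p = 0.821), and neither passed the test.

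Hearts of the same group differed in many of the genes at once. ISO/PE male1 was the highest of its group in 35 of the 40 genes and ISO/PE male2 the lowest in 35, ISO male2 was the highest of its group in 30, and Ctr male1 in 21. Summed over the 40 genes, levels were 313, 298 and 338 CPM in Ctr, 505, 495 and 579 CPM in ISO, and 610, 694 and 495 CPM in ISO/PE hearts. ISO/PE male2 thus held as much as ISO male1, while ISO/PE male1 exceeded every ISO heart. Set against the mean of the ISO hearts, the median log2 difference of the 40 genes was 0.21 in ISO/PE female2, 0.48 in ISO/PE male1 and -0.12 in ISO/PE male2, with 31, 37 and 15 of the 40 genes above 0, and the medians of all genes were close to 0. The 40-gene median for ISO/PE vs. ISO was 0.33 without ISO/PE male2, with 3 genes called (Tyms, Prim1 and Rrm1), and 0.06 without ISO/PE male1, with 0 called. Against Ctr, 30 genes were called higher in ISO/PE both without ISO/PE male1 and without ISO/PE male2.

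**Figure D4:**
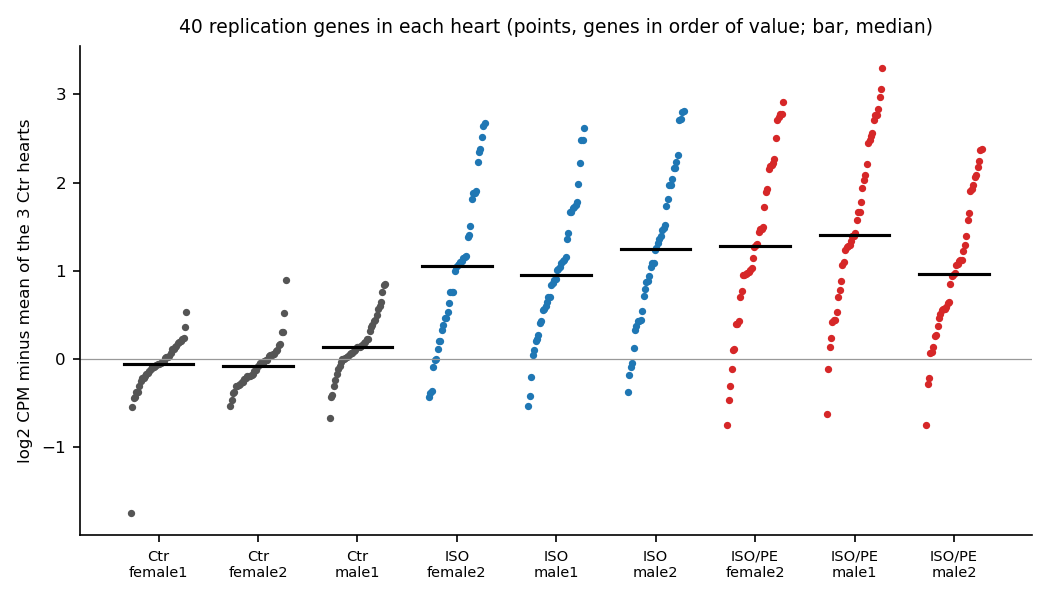
Log2 CPM of the 40 genes in each heart minus the mean of the 3 Ctr hearts (points, genes sorted by value; bar, median), with a prior count of 2. The bars of the treated hearts lie between 0.96 (ISO male1 and ISO/PE male2) and 1.41 (ISO/PE male1).

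Genes at a low level in an untreated heart had the larger log2 fold changes. To keep the level and the change apart, the level was read in Ctr male1 alone and the change from the fit without that heart, in bins of RPKM set after the values were seen. Of 10 genes under 1 RPKM (Ccne1, Cdc6, Chaf1b, Clspn, Gins2, Mcm10, Orc1, Pole, Tyms and Uhrf1), 9 rose in ISO/PE, at a median log2 fold change of 2.67. Of 22 genes from 1 to 5 RPKM, 19 rose, at a median of 1.36. Of 8 genes over 5 RPKM (Dut, Fen1, Pcna, Pola2, Pold1, Rfc4, Rpa2 and Rrm1), 2 rose and 1 fell, at a median of 0.26. In the same bins, 33.4%, 19% and 10.2% of all genes tested were called higher, at medians of 0.50, 0.05 and -0.06. The filter (minimum count 10) kept genes below this level in the Ctr hearts only if treated hearts held more. Rises are therefore favoured in the lowest bin, and how far this sets the order of the bins was not tested. In ISO the medians of the 40 genes in these bins were 2.13, 1.19 and 0.16.

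**Figure D5:**
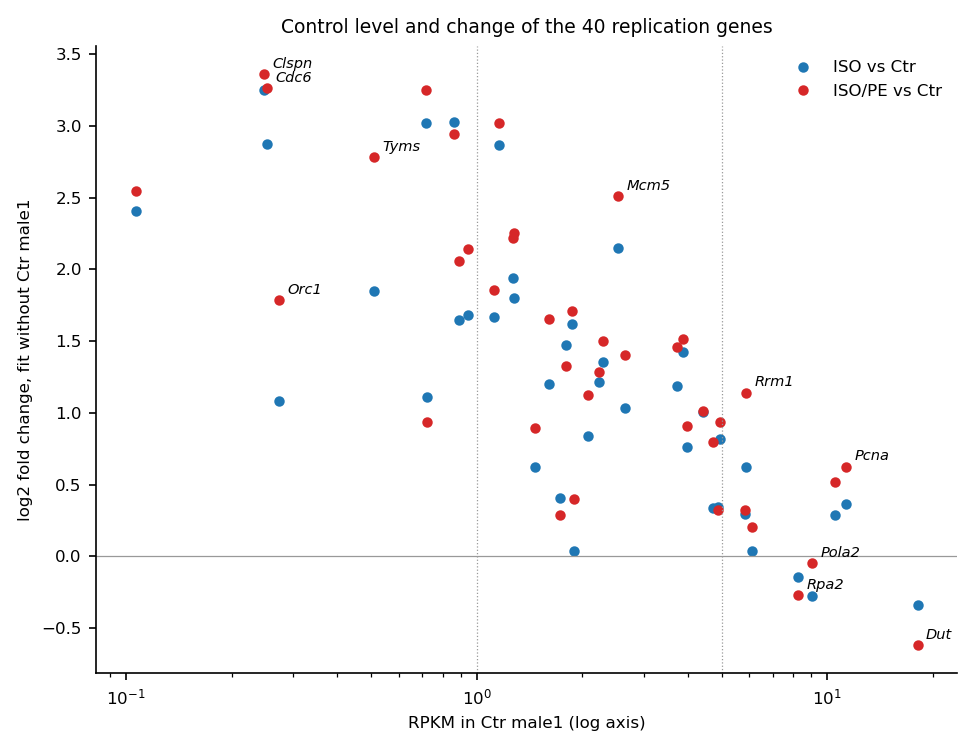
Log2 fold change against Ctr in ISO (blue) and ISO/PE (red), from the fit without Ctr male1, plotted against the RPKM of each of the 40 genes in Ctr male1 on a log axis; dotted lines mark 1 and 5 RPKM. In ISO/PE the genes left of 1 RPKM lie between 0.93 (Pole) and 3.36 (Clspn), and those right of 5 RPKM between -0.62 (Dut) and 1.14 (Rrm1).

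Further genes of the same pathways, from lists that hold none of the 40, gave the following counts. Beside them, 10.4% of all genes tested were called higher in ISO and 16% in ISO/PE, and 2.99% and 10.1% lower. Of 17 other licensing and firing genes, 5 rose in ISO and 7 in ISO/PE, at median log2 fold changes of 0.15 and 0.43. Ticrr, which helps fire origins, rose by 3.20 and 3.31, and Dbf4, the partner of the CDC7 kinase, by 1.45 and 2.05. Of 23 other fork and strand-maturation genes, 7 and 9 rose (medians 0.12 and 0.28), with Exo1 (a nuclease, 3.66 and 3.86) and Top2a (topoisomerase II, 3.15 and 3.55) the highest. Of 13 other nucleotide-supply genes, 1 rose in ISO, and 3 rose and 1 fell in ISO/PE. For so short a list these counts are near the shares of all genes. Dck, the deoxycytidine kinase, rose by 1.19 and 1.21, and Nme1, a nucleoside diphosphate kinase, by 1.11 in ISO/PE. Rrm2b, the p53-regulated alternative to Rrm2, had -0.47 in ISO and fell by 0.64 in ISO/PE, the opposite of Rrm2. Of 9 other chromatin-assembly genes 3 rose under both treatments, Hells and Asf1b (2.12 and 2.15 in ISO, 2.44 and 2.39 in ISO/PE) more than Dnmt1 (0.64 and 0.66). Of 23 other G1/S genes 8 rose in ISO, and 9 rose and 1 fell in ISO/PE. Dtl, which targets CDT1 for destruction, rose by 2.90 and 3.00 and Ccna2, the S-phase cyclin, by 2.40 and 2.73, while Tfdp2, a dimer partner of E2F, had -0.41 in ISO and fell by 0.71 in ISO/PE. Exo1, Ticrr and Dtl were near the floor in Ctr, at means of 0.164, 0.287 and 0.694 CPM. The filter kept genes this low in Ctr only if treated hearts held more, and the genes named here were picked for their large fold changes. Between ISO/PE and ISO, 3 of these 85 genes (3.53%) were called higher, Pold4 (0.68), Nme1 (0.84) and Ctps (0.66), a share close to the 3.64% of all genes.

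Markers of some cell types moved with the same groups, and those of others did not. Of all genes tested, 10.4% were called higher in ISO and 16% in ISO/PE, and 2.99% and 10.1% lower. All 14 macrophage and monocyte markers rose in ISO/PE and 12 in ISO, and their sum was 767 to 962 CPM in Ctr, 1591 to 2576 CPM in ISO and 2602 to 3464 CPM in ISO/PE hearts. Of 10 activated-fibroblast markers 6 rose in ISO and 9 in ISO/PE, with sums of 367 to 424, 1499 to 3131 and 5056 to 6560 CPM. Of 14 cardiomyocyte markers 2 fell in ISO and 7 in ISO/PE, with sums of 81359 to 92944, 65547 to 75239 and 41130 to 58452 CPM. None of the 12 endothelial markers was called against Ctr. Their median log2 fold changes were -0.13 and -0.34, with sums of 2954 to 3598, 2930 to 3598 and 2694 to 2939 CPM. Of 12 fibroblast markers 8 rose and 1 fell in ISO, and 6 rose and 1 fell in ISO/PE. The collagen genes Col1a1 (2.76 in ISO and the highest of the list in ISO/PE), Col1a2 (2.43 and 3.55) and Col3a1 (2.93 and 3.59) and Mfap5 (2.31 and 2.84) had the highest log2 fold changes of that list, Gsn was the gene that fell, and Pdgfra and Dcn were not called. Of 9 smooth-muscle and pericyte markers 2 rose in ISO, and 3 rose and 2 fell in ISO/PE. Of 7 B cell markers tested 5 fell under both treatments. Of 12 T and NK cell markers 2 passed the filter on low counts and Cd3e, Cd3d and Cd8a did not. Of the 2 tested, Cd4 rose under both treatments (0.94 and 0.74), while Lck was lower without a call (-1.04 and -0.44). Of 8 neutrophil markers 4 passed and Ly6g did not. Of those tested Csf3r rose under both treatments (1.15 and 1.98). The others were not called, namely S100a8 (-0.88 and 0.63), S100a9 (-1.06 and 0.09) and Retnlg (0.57 and 1.44). Of 7 erythroid markers 2 rose in ISO and 7 fell in ISO/PE. The part of these cell types in the replication genes was not tested.

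Sex was the one other factor in the labels. None of the 40 genes had an adjusted p under 0.05 for an interaction of sex with treatment (edgeR, lowest adjusted p 0.905 and 0.931 for ISO and ISO/PE against Ctr, and 0.448 between the treatments), and 0, 1 and 1 of them had an unadjusted p under 0.05. These were Gins2 for ISO/PE against Ctr and Tyms between the treatments. For Tyms, the gene called between the treatments, the log2 difference in males minus that in females was -1.08. Some combinations of sex and group hold 1 heart, among them the females of ISO and of ISO/PE. With sex as a covariate the same numbers of genes were called higher, 27, 30 and 1.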

How the data were processed

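The authors aligned reads with STAR to mm10 and counted reads in exons of RefSeq transcripts. The study's methods name analyzeRepeats.pl, without regard to strand, and the submitters' processing notes name featureCounts. How reads in overlapping exons were assigned depends on the tool, and no version was stated in the sources used here. The deposited tables hold raw counts per transcript (30433 and 29999 rows, 29889 shared, with identical ISO values), and their normalized values, fold changes and p-values, from the authors' own comparisons, were not used. Each symbol was represented by its most highly counted transcript. Genes were filtered with filterByExpr (minimum count 10, total 15), scaled by TMM, and tested in 1 quasi-likelihood fit over 9 hearts without covariates (edgeR 4.0.16, R 4.3.3), with Benjamini-Hochberg adjustment over 14426 genes. Alternatives were DESeq2 1.42.0, other scaling, filters, transcripts, samples, covariates and thresholds. The code was tested on simulated data. CPM and RPKM were computed from the counts, and SE is the standard error of the log2 fold change.

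All 40 genes are named. Values in every heart are given for 11 genes picked for their roles (Mcm2, Mcm5, Cdc6, Cdt1, Pcna, Rrm2, Tyms, Tk1, E2f1, Ccne1 and Ccne2), for the largest and the smallest change of each role, and for genes called between the treatments or not called for ISO/PE vs. Ctr. Members and lists were chosen with earlier results of these data known.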

Additional observations from a re-analysis of the deposited data

How the results depend on the processing

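The count of genes higher in ISO than Ctr (27) ranged from 20 to 29 over the alternatives and from 25 to 28 with 1 heart left out, and that for ISO/PE vs. Ctr (30) from 26 to 38 and from 30 to 31. With no fold threshold 1 gene was lower in ISO than Ctr, and 2 were higher in ISO/PE than ISO. The count higher in ISO/PE than ISO (1) was 0 with the hearts of the 2 groups only and 0 to 3 with 1 heart left out. Scaling to cardiomyocyte markers gave 27 there and 0 genes lower in ISO/PE than Ctr, with Pola2 at 0.71 and Dut at 0.076 for ISO/PE vs. Ctr. This scaling shifts all genes of a comparison by about the same amount. It moved the median of all genes to 0.27, 0.79 and 0.52 in the 3 comparisons (40 genes: 1.33, 2.03 and 0.72). Its calls over all genes for ISO/PE vs. ISO were 5060 higher and 88 lower, beside 525 and 405. With the replicate number and sex as a block the counts higher were 20, 29 and 0. The label female1 occurs in Ctr only, so in this setting Ctr female1 does not inform the comparisons with Ctr. Same-numbered hearts correlated in their deviations from the group means at -0.12 to 0.18, and other pairs at -0.21 to 0.16. These ranges overlap, and so few pairs cannot show whether the numbers pair the hearts. Of values called neither in the main analysis nor under the alternative, 8, 5 and 30 changed sign, in 4, 3 and 16 genes, with main values up to 0.28 in size. Genes with few counts, such as Orc1, limit what these depths can show.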
